A study of Homo sapiens with 8 samples.

Results

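Genes switched on by the tumour suppressor p53 were followed in HCT-116, a line of human colorectal carcinoma cells. The set holds 33 genes named as p53 targets, out of 15317 named genes that could be tested, and it was taken as every probe on the array that carries one of these 33 gene names. All 33 were tested. The choice of genes did not use their measured values, although it was made with earlier results of these data known.

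The study asked how tumour cells become resistant to an inhibitor of CDK2, a kinase that drives cells from G1 into and through DNA replication, and what resistance costs them; the arrays set resistant cells beside parental, treated and CDK2-deleted ones. RNA was profiled in 4 groups of 2 replicates, which the methods call duplicates, each hybridised alone to a one-colour Agilent array. WT were parental HCT-116 cells without drug. WT+NU6102 were the same cells given 20 µM NU6102, an inhibitor of CDK1 and CDK2, for 24 h. CDK2 KO cells were CDK2-/- HCT-116 cells from a commercial source, kept without drug. R50 cells were a resistant line derived from HCT-116 by growth in 50 µM NU6102 from the outset, and were passaged with fresh drug. They are taken here as still in it when RNA was prepared, which the array methods do not state. The groups thus compare a short exposure to the inhibitor, a permanent deletion and a long selection, and R50 cells would carry both selection and drug. Whether CDK2 KO or R50 came from 1 clone was not stated in the sources used here.

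p53 is a transcription factor that is normally kept scarce because MDM2, itself one of its targets, marks it for destruction. DNA damage and other stresses stabilise p53, which then binds a pair of similar decamers in or near its target genes and raises their transcription. Its targets arrest the cell cycle, feed back on p53, drive cell death, repair DNA and alter metabolism. Many of them also answer to other transcription factors, so that one target can move while others do not.

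A level is the log2 of the background-subtracted signal of a gene's brightest tested probe, minus the 75th percentile of that array, so that 0 is the signal of a probe at the 75th percentile. Levels compare arrays for 1 gene and not 1 gene with another. A difference between groups is a log2 fold change with its standard error (SE), from limma fitted to all 8 arrays, and it is called when the adjusted p, corrected over all tested probes by Benjamini-Hochberg, is under 0.05. A bulk sample cannot tell fewer expressing cells from less RNA per cell. The arrays had from 32376 to 36206 spots well above background, and the probes of 32 of the 33 p53 targets were above it on all 8. The exception was SPATA18. WT and WT+NU6102 arrays lay on slide 2 and CDK2 KO and R50 arrays on slide 1. The comparisons of WT+NU6102 with WT and of R50 with CDK2 KO were therefore made within a slide, and in the others slide and group cannot be told apart. CDK2 itself fell by 0.78 on the log2 scale in CDK2 KO (adjusted p = 0.000271, limma), was 0.34 lower in R50 and rose by 0.33 in WT+NU6102. Its probe was above background on every array, and whether it lies in the deleted part was not known. The levels of 6 of 7 markers of colorectal epithelium were above background on all 8 arrays, VIL1 on none. Of 6 markers of other cell types, ALB was above background on no array and PTPRC, COL1A1 and DES on all 8, with a summed signal between 2.56 and 3.38 times the 75th percentile, against 467.5 to 735.2 times for the epithelial markers. Against WT, 4 of the 6 epithelial markers tested rose in R50 and 3 in CDK2 KO with none lower, and 3 rose and 2 fell with NU6102, and their summed signal was 467.5 to 478.8 in WT, 549.8 to 570.5 in WT+NU6102, 589.8 to 612.8 in CDK2 KO and 732.0 to 735.2 in R50. Of the 4 markers of other cell types tested, COL1A1, a collagen chain of fibroblasts, fell by 0.75 with NU6102 and rose by 1.22 in CDK2 KO and 0.66 in R50, CD3E rose in CDK2 KO, and DES and PTPRC were not called in any of the 3. The part of these markers in the changes below was not tested.

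The RefSeq promoter windows of the p53 targets were read for the p53 response element, the sequence through which p53 can act on a gene. Each window ran from 250 bases before to 50 bases after the start of transcription, and 26 of the 33 genes had one. GADD45A, PHLDA3, TNFRSF10A, TNFRSF10B, TNFRSF10C, TP53INP1 and RRM2B had none in the table. The element was sought as a pair of decamers, each with an intact core at its centre (a C and a G around 2 bases that are A or T), with at most 13 bases between them. The consensus reads the same on both strands, so 1 search covers both. A match with at most 2 mismatches was found in 3 of the 26 genes (11.5%) and in 495 of 27305 genes with such a window (1.81%). The 3 genes were DDB2, AEN and FAS, and they are printed below from RefSeq on GRCh38.p14, on the plus strand, 5′ to 3′, with the 2 decamers in capitals.
DDB2: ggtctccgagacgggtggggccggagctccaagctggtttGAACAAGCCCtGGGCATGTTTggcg
AEN: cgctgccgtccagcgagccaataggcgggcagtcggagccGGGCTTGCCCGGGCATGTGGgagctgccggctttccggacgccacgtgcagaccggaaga
FAS: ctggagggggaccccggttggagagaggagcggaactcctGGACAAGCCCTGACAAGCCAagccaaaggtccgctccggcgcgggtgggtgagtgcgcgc

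The DDB2 stretch (chr11:47214939-47215003) held a pair with 0 mismatches and 1 base between the decamers, which began at position 6, counted from the start of transcription. The AEN stretch (chr15:88621266-88621365) had 2 mismatches and no spacer and began at position -34. The FAS stretch (chr10:88991269-88991368) also had 2 mismatches and no spacer and began at position -122. These genes were picked for print by their few mismatches after their values were seen, and none of them changed by 1 or more on the log2 scale in any comparison. Among the genes that did change by that much against WT, only PLK2 and SPATA18 had a window with a pair of intact cores, and their best pairs had 4 and 6 mismatches. A match of letters is a description of the window and shows no binding, and many p53 sites lie outside such windows.

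Across the 3 comparisons with WT, p53 targets were called higher more often than lower in CDK2 KO and R50 and went both ways in WT+NU6102. In CDK2 KO 19 of 33 were higher (57.6%, against 19.2% of all genes tested) and 2 lower (background 16.7%). In R50 16 of 33 were higher (48.5%, against 12.2%) and 3 lower (background 15.4%). In WT+NU6102 11 were higher (33.3%, against 28.9%) and 8 lower (24.2%, equal to the background of 24.2%). The median log2 fold change of the 33 genes was 0.32 in CDK2 KO, 0.22 in R50 and 0.05 in WT+NU6102, beside 0.02, -0.04 and 0.04 over all genes tested. SPATA18 could be tested only because it was above background in CDK2 KO, and without it 18 of 32 genes were higher there (56.2%), with a median of 0.31, and the median with NU6102 was -0.02. These 3 comparisons share the WT arrays. Per array, the median difference of the 33 genes from the WT mean was 0.36 and 0.31 on the CDK2 KO arrays, 0.23 and 0.20 on the R50 arrays and -0.04 and 0.03 on the WT+NU6102 arrays. Both groups of slide 1 thus stood above WT, and WT+NU6102, on the slide of WT, stood near it.

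**Figure D1:**
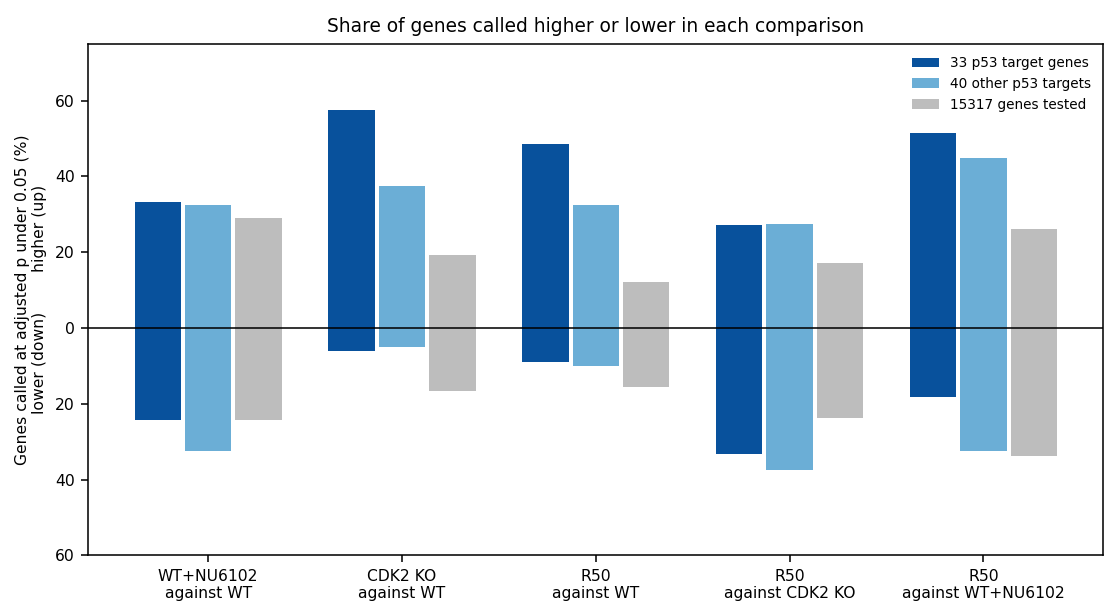
Percent of genes called higher (up) or lower (down) at an adjusted p under 0.05 in 5 comparisons, for the 33 p53 target genes, 40 other p53 targets and all 15317 genes tested. The share of p53 target genes called higher was 57.6% in CDK2 KO and 48.5% in R50 against WT, and 33.3% in WT+NU6102, where the share over all genes was 28.9%.

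Most of these changes were small. Under the stricter rule, which also asks that the log2 fold change reach 1 in size, 4 of 33 genes were called in WT+NU6102 (background 6.69%), 3 in CDK2 KO (background 5.03%) and 2 in R50 (background 2.74%), which were 6 different genes in all: PLK2, TNFRSF10A, TNFRSF10C, TP53INP1, CYFIP2 and SPATA18. Without SPATA18 there were 2 in CDK2 KO. Calls against WT were made for 30 of the 33 genes in at least 1 comparison and for 8 in all 3. ACER2, NINJ1 and SESN1 were called in none. The same counts over all genes were not made, so these numbers only describe the 33 genes. SPATA18, testable only through CDK2 KO, is among the 30 and among the genes that passed the F-test given next. An F-test over the 4 groups at an adjusted p under 0.001, the threshold of the study's methods, was passed by 15 of the 33 (background 27.4%). Fewer of them passed when any 1 of the 8 arrays was left out, and no share over all genes is given for those fits.

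**Figure D2:**
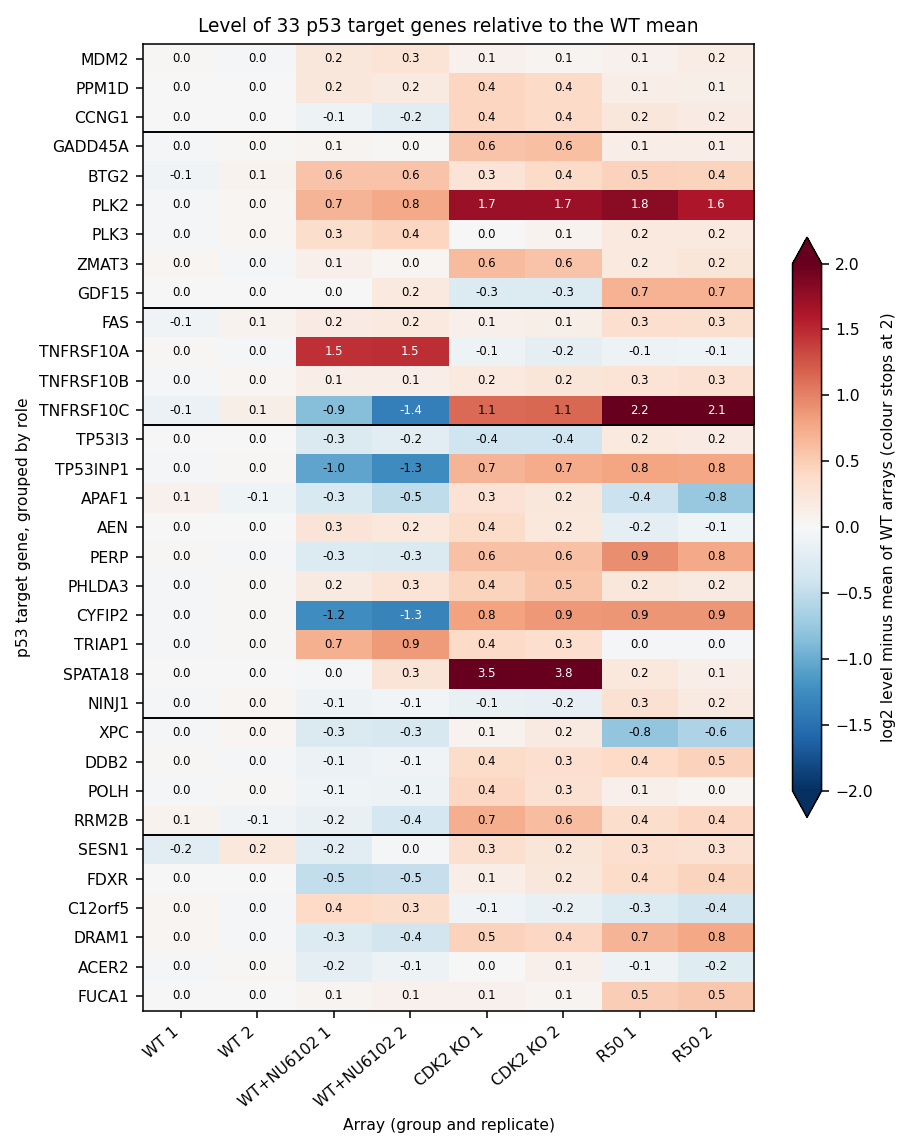
Level of each of the 33 p53 target genes (rows, grouped by role) on each of the 8 arrays (columns), as the log2 difference from the mean of the 2 WT arrays, with the value printed in each cell and colours that stop at 2. The duplicates of a group look alike, and the CDK2 KO and R50 columns hold more red cells than the WT+NU6102 columns.

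The genes that feed back on p53 moved little. MDM2, the ubiquitin ligase that removes p53, had levels of 1.44 and 1.40 in WT, 1.65 and 1.70 in WT+NU6102, 1.51 and 1.47 in CDK2 KO, and 1.51 and 1.57 in R50. The WT+NU6102 arrays were the highest, and the other groups lay within 0.2 of each other. The rise with NU6102 was 0.26 ± 0.05 (SE, n = 2 arrays a group, adjusted p = 0.00968, limma). Of the other 3 MDM2 probes 2 rose more, by 0.60 and 0.54, and 1 gave 0.01. The differences of MDM2 from WT were 0.07 (95% confidence interval -0.05 to 0.20) in CDK2 KO and 0.12 (-0.003 to 0.25) in R50, neither of them called.

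PPM1D, a phosphatase that turns off p53 and its activating kinases, rose in CDK2 KO by 0.41 (adjusted p = 0.00245) and with NU6102 by 0.20 (adjusted p = 0.018), and its difference in R50 was 0.12 (adjusted p = 0.117). The second PPM1D probe gave 0.27 in CDK2 KO, called, and 0.16 with NU6102, not called. CCNG1 encodes cyclin G1, a partner of MDM2. Its levels were 1.75 and 1.72 in WT, 1.63 and 1.53 in WT+NU6102, 2.17 and 2.12 in CDK2 KO, and 1.97 and 1.89 in R50. The 4 groups did not overlap, with CDK2 KO highest and WT+NU6102 lowest. By this brightest probe only the rise in CDK2 KO, 0.41 ± 0.06, was called against WT (adjusted p = 0.00571). The second CCNG1 probe was called in CDK2 KO, at 0.33, and also with NU6102, at -0.24 (adjusted p = 0.0451). On that second probe WT and R50 overlapped. None of these 3 feedback genes was called in R50 against WT by its brightest probe, where 12.2% of all genes were higher and 15.4% lower. However, 1 of the dimmer MDM2 probes was called higher in R50, by 0.25 (adjusted p = 0.0464).

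The 6 genes of growth arrest and stress were higher or not called, with 1 exception. With NU6102 3 were higher (50%, against 28.9% of all genes), and in R50 4 (66.7%, against 12.2%). In CDK2 KO 4 were higher (66.7%, against 19.2%) and 1 lower (background 16.7%). PLK2, a polo-like kinase induced by stress, had levels of 0.41 and 0.48 in WT, 1.13 and 1.20 in WT+NU6102, 2.18 and 2.16 in CDK2 KO, and 2.26 and 2.06 in R50. WT was lowest and WT+NU6102 lay in between, while CDK2 KO and R50 overlapped. The rise of PLK2 was 0.72 ± 0.08 with NU6102 (adjusted p = 0.00121), 1.72 ± 0.08 in CDK2 KO (adjusted p = 0.000137) and 1.71 ± 0.08 in R50 (adjusted p = 0.000352). PLK2 was 0.99 higher in R50 than in WT+NU6102 (adjusted p = 0.00025), and the difference of R50 from CDK2 KO was -0.01 (95% confidence interval -0.21 to 0.19). The PLK2 probe lies at chr5:57749993-57750052 (hg19, minus strand).

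BTG2, an antiproliferative gene that slows the passage through G1, was the other gene called higher in all 3 comparisons with WT, by 0.57 with NU6102, 0.32 in CDK2 KO and 0.45 in R50. PLK3, a second polo-like kinase of the stress response, rose by 0.39 with NU6102 (adjusted p = 0.00346), with 0.03 in CDK2 KO and 0.20 in R50 not called. GADD45A, a brake on the cell cycle after DNA damage, rose by 0.59 in CDK2 KO (adjusted p = 0.000639), while its values of 0.05 with NU6102 and 0.13 in R50 were not called. ZMAT3, an RNA-binding zinc finger protein, rose by 0.60 in CDK2 KO (adjusted p = 0.00129) and by 0.22 in R50 (adjusted p = 0.0467). GDF15, a secreted member of the TGF-beta family released by stressed cells, went apart from the others: it fell by 0.28 in CDK2 KO (adjusted p = 0.0334) and rose by 0.70 in R50 (adjusted p = 0.00306). Its 2 R50 arrays stood at 7.97 each, above the 7.27 to 7.47 of the WT and WT+NU6102 arrays, with both CDK2 KO arrays lowest.

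**Figure D3:**
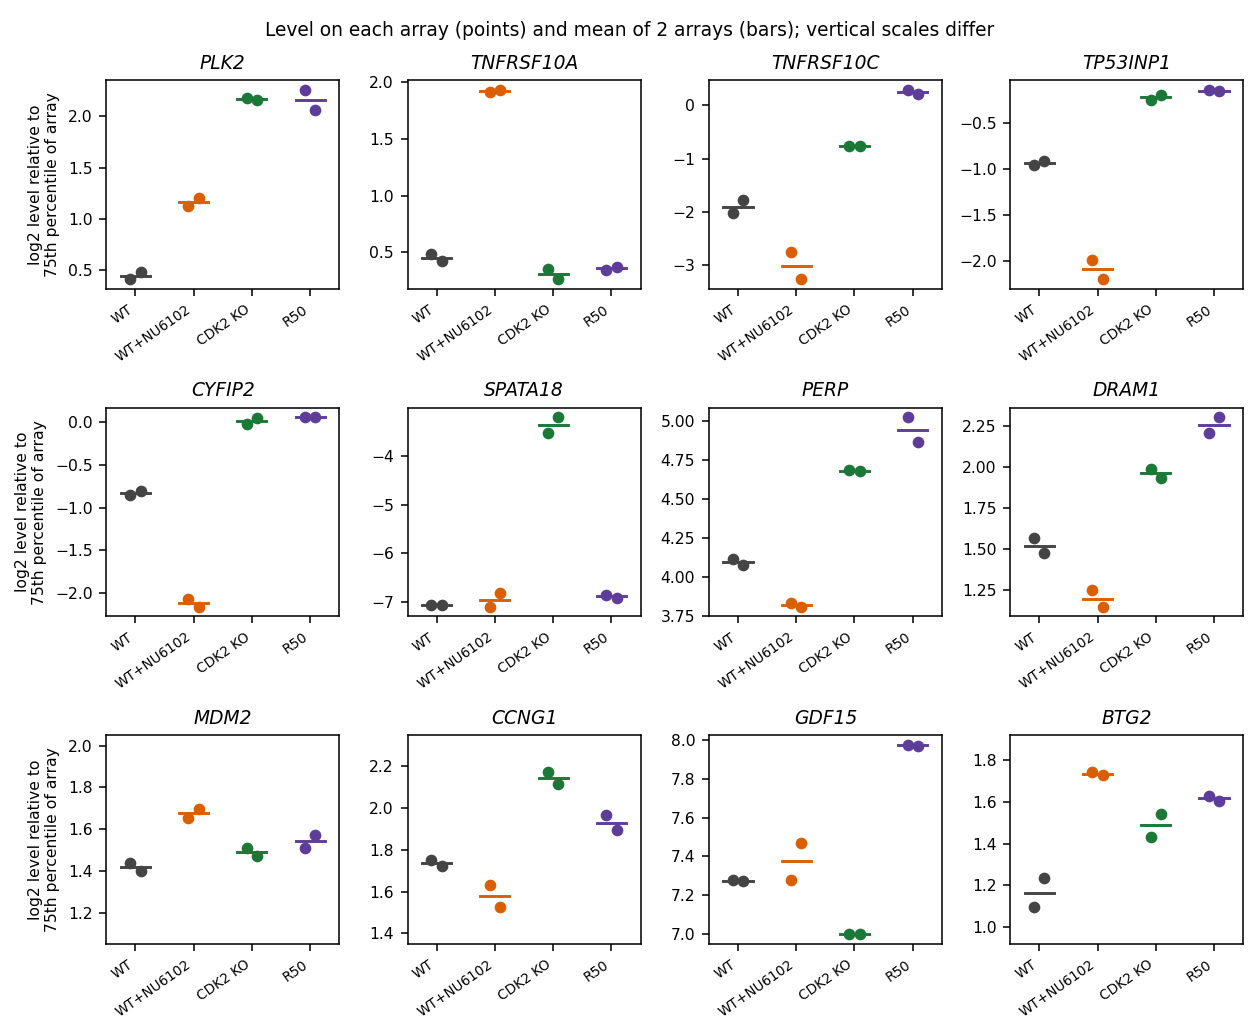
log2 level relative to the 75th percentile of the array for 12 p53 target genes, with 1 point for each array and a bar for the mean of the 2 arrays of a group; the vertical scales differ between panels. TNFRSF10C, TP53INP1, CYFIP2, PERP and DRAM1 show WT+NU6102 below WT and both other groups above it, and SPATA18 stands out in CDK2 KO, the only group in which its probe was above background.

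The 4 receptors for death ligands did not move as a group. TNFRSF10A encodes DR4, a receptor that triggers apoptosis when it binds TRAIL. Its levels were 0.48 and 0.42 in WT, 1.92 and 1.94 in WT+NU6102, 0.36 and 0.26 in CDK2 KO, and 0.35 and 0.37 in R50. Both treated arrays stood far above the other 6, which lay within 0.3 of each other. The rise with NU6102 was 1.47 ± 0.05 (adjusted p = 9.38e-05), whereas the values of -0.14 in CDK2 KO and -0.09 in R50 were not called. R50 cells, also grown in NU6102, were 1.57 below WT+NU6102 (adjusted p = 2.71e-05).

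TNFRSF10C encodes DcR1, a decoy receptor that binds TRAIL without passing on the death signal. Its levels were -2.02 and -1.78 in WT, -2.75 and -3.27 in WT+NU6102, -0.77 and -0.76 in CDK2 KO, and 0.29 and 0.21 in R50. The groups were fully apart, in the order WT+NU6102, WT, CDK2 KO, R50, although the treated duplicates differed by 0.51. TNFRSF10C fell by 1.11 ± 0.18 with NU6102 (adjusted p = 0.00437), and rose by 1.14 ± 0.18 in CDK2 KO (adjusted p = 0.00677) and by 2.15 ± 0.18 in R50 (adjusted p = 0.0017). The gap between R50 and WT+NU6102 was 3.26 (adjusted p = 8.25e-05), the widest gap of any of the 33 genes in that comparison.

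TNFRSF10B, the second TRAIL receptor that signals death (DR5), rose by 0.22 in CDK2 KO (adjusted p = 0.0247) and by 0.29 in R50 (adjusted p = 0.0162), with 0.13 in WT+NU6102 not called. FAS, the receptor for FAS ligand, rose in R50 by 0.33 (adjusted p = 0.0158) and with NU6102 by 0.19 (adjusted p = 0.0486), and its 0.11 in CDK2 KO was not called. The other FAS probes gave 0.25 and 0.11 with NU6102, neither called. In R50 they gave 0.39 and 0.24, only the former called. TNFRSF10D (DcR2), the second decoy for TRAIL, is not one of the 33 genes. It rose with NU6102 by 1.21 (adjusted p = 0.000234), where TNFRSF10C fell, and also in CDK2 KO by 0.97 (adjusted p = 0.000634) and in R50 by 0.65 (adjusted p = 0.00422).

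Of the 10 other genes of cell death, 3 were higher (30%, against 28.9% of all genes) and 4 lower (40%, against 24.2%) in WT+NU6102. In CDK2 KO 7 were higher (70%, against 19.2%), or 6 without SPATA18, and 1 lower (10%, against 16.7%). In R50 4 were higher (40%, against 12.2%) and 1 lower (10%, against 15.4%). TP53INP1 encodes a protein that supports p53 activity and autophagy. Its levels were -0.96 and -0.91 in WT, -1.98 and -2.20 in WT+NU6102, -0.25 and -0.20 in CDK2 KO, and -0.14 and -0.16 in R50. WT+NU6102 was lowest and the groups did not overlap. TP53INP1 fell by 1.16 ± 0.08 with NU6102 (adjusted p = 0.000315), and rose by 0.71 in CDK2 KO (adjusted p = 0.00221) and by 0.79 in R50 (adjusted p = 0.00305). Its other probe gave the same directions, at -1.10, 0.61 and 0.48, and of these only the fall was called.

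CYFIP2, a partner of the WAVE complex that shapes the actin cytoskeleton, had levels of -0.85 and -0.81 in WT, -2.07 and -2.16 in WT+NU6102, -0.03 and 0.04 in CDK2 KO, and 0.05 and 0.05 in R50. Here too the treated arrays were lowest, and CDK2 KO and R50 lay side by side above WT. CYFIP2 fell by 1.29 ± 0.05 with NU6102 (adjusted p = 0.000121), and rose by 0.84 in CDK2 KO (adjusted p = 0.000402) and by 0.88 in R50 (adjusted p = 0.000695). Its second probe gave smaller changes, -0.76 with NU6102, 0.25 in CDK2 KO and 0.15 in R50, the last of them not called.

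PERP, a membrane protein of desmosomes that p53 induces in apoptosis, had levels of 4.12 and 4.08 in WT, 3.83 and 3.81 in WT+NU6102, 4.69 and 4.68 in CDK2 KO, and 5.02 and 4.86 in R50. The order of the groups was that of TNFRSF10C, without overlap. PERP fell by 0.28 with NU6102 (adjusted p = 0.0177), and rose by 0.58 in CDK2 KO (adjusted p = 0.00226) and by 0.84 in R50 (adjusted p = 0.00138).

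SPATA18, which encodes Mieap, a protein of mitochondrial quality control, was above background only on the 2 CDK2 KO arrays, at -3.54 and -3.22. The measured values elsewhere were -7.06 and -7.06 in WT, -7.09 and -6.81 in WT+NU6102, and -6.84 and -6.92 in R50, not well above background. Set against the lowest signal well above background on each dim array, SPATA18 was at least 2.99-fold higher in CDK2 KO than in WT and at least 3.12-fold higher than in R50. These bounds hold for the main processing only. With normexp background correction (offset 50), the fitted log2 difference of CDK2 KO from WT was 1.02. That of R50 from CDK2 KO was -1.02. SPATA18 passed the filter on dim probes only through CDK2 KO, so these values are a description and no p is given for them. Its probe lies at chr4:52963175-52963234 (hg19, plus strand).

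TRIAP1, a small inhibitor of apoptosis, rose in CDK2 KO by 0.36 (adjusted p = 0.00976) and with NU6102 by 0.79 (adjusted p = 0.000457). PHLDA3, a repressor of AKT signalling, rose by 0.22 with NU6102 and by 0.50 in CDK2 KO, and AEN, an apoptosis-enhancing nuclease with one of the printed p53 elements, by 0.24 and 0.29. The R50 values of these 3 genes, -0.02, 0.20 and -0.14, were not called against WT. TP53I3, an oxidoreductase that generates reactive oxygen, fell by 0.25 with NU6102 and by 0.39 in CDK2 KO and rose by 0.18 in R50 (adjusted p = 0.0467). Its second probe gave -0.07 with NU6102, not called, and -0.29 in CDK2 KO and 0.26 in R50, both called. APAF1, the scaffold of the apoptosome, fell by 0.59 in R50 (adjusted p = 0.0291), with -0.41 in WT+NU6102 and 0.26 in CDK2 KO not called. NINJ1, which ruptures the plasma membrane of dying cells, had values of -0.08 in WT+NU6102, -0.16 in CDK2 KO and 0.24 in R50, none called.

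**Figure D4:**
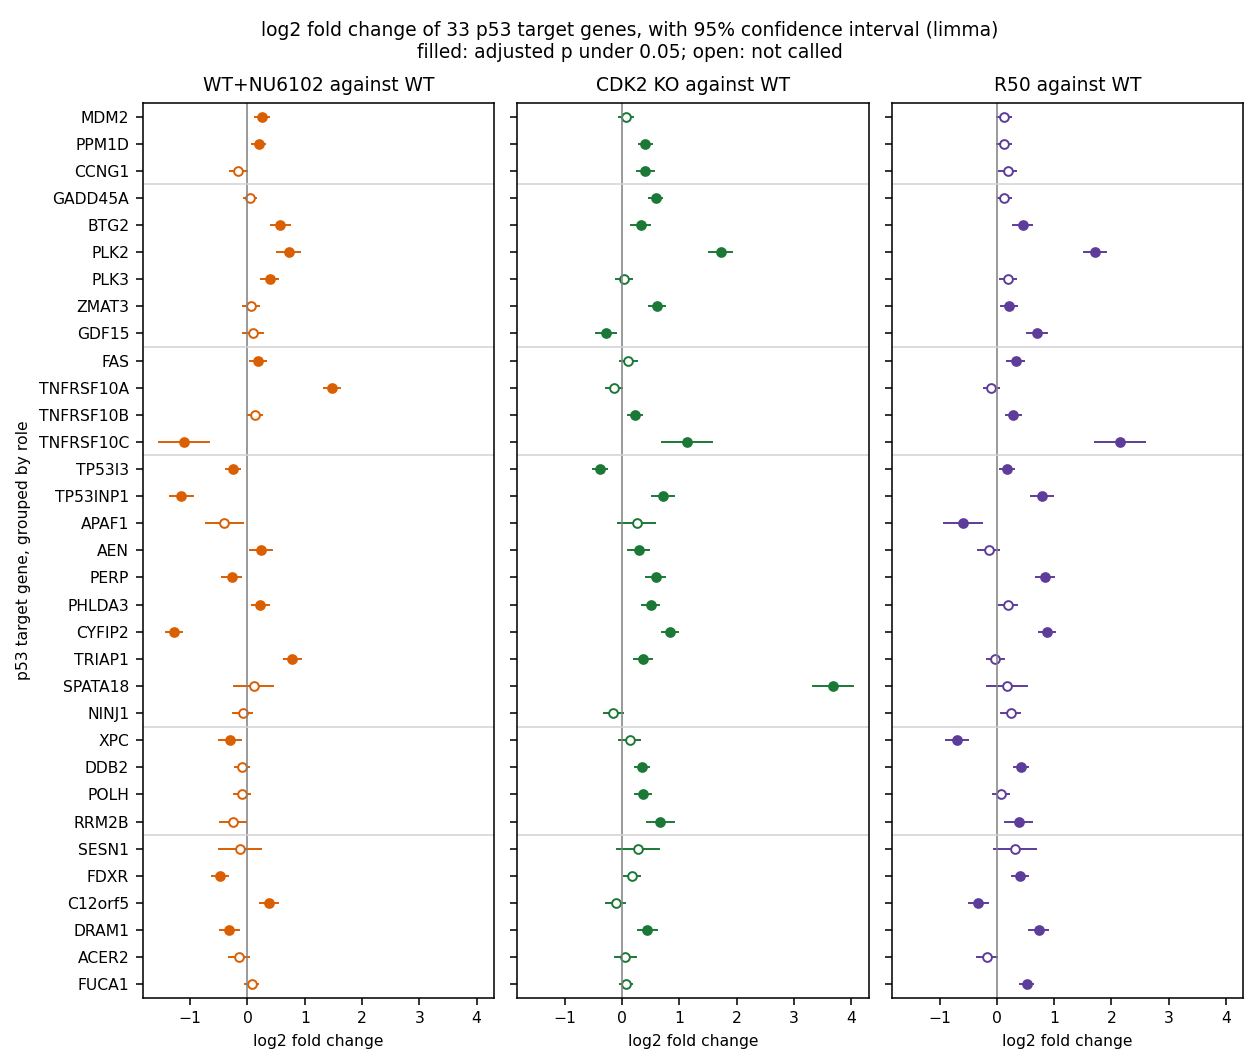
log2 fold change against WT of the 33 p53 target genes (rows, grouped by role) in WT+NU6102, CDK2 KO and R50, with 95% confidence intervals from limma on 2 arrays a group; filled points had an adjusted p under 0.05 and open points did not. In CDK2 KO 19 filled points lie above 0 and 2 below, in R50 16 and 3, and in WT+NU6102 11 and 8; the SPATA18 value is the fitted one, with WT below background.

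Of the 4 genes of DNA repair and nucleotide supply, none was called higher with NU6102 (background 28.9%) and 1 lower (25%, against 24.2%). In CDK2 KO 3 were higher (75%, against 19.2%) and none lower (background 16.7%). In R50 2 were higher (50%, against 12.2%) and 1 lower (25%, against 15.4%). DDB2, which finds ultraviolet damage and holds the p53 element without a mismatch, rose by 0.35 in CDK2 KO (adjusted p = 0.00453) and by 0.43 in R50 (adjusted p = 0.00432), with -0.09 in WT+NU6102 not called. The second DDB2 probe gave 0.26 in CDK2 KO, not called, and 0.51 in R50, called. RRM2B, the p53-induced subunit of ribonucleotide reductase, rose by 0.67 in CDK2 KO (adjusted p = 0.00476) and by 0.38 in R50 (adjusted p = 0.0382). Its second probe gave 0.40 in CDK2 KO and 0.23 in R50, the latter not called. POLH, the translesion polymerase eta, rose by 0.36 in CDK2 KO alone (adjusted p = 0.00703), and its values of -0.09 and 0.08 in WT+NU6102 and R50 were not called. XPC, the damage sensor of nucleotide excision repair, went the other way, with falls of 0.30 with NU6102 (adjusted p = 0.0245) and 0.70 in R50 (adjusted p = 0.00394).

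Of the 6 genes of metabolism, redox and autophagy, 3 were higher (50%, against 12.2% of all genes) and 1 lower (16.7%, against 15.4%) in R50. With NU6102 1 was higher (16.7%, against 28.9%) and 2 lower (33.3%, against 24.2%). In CDK2 KO 1 was higher (16.7%, against 19.2%) and none lower (background 16.7%). DRAM1, a lysosomal membrane protein that promotes autophagy, had levels of 1.57 and 1.48 in WT, 1.25 and 1.15 in WT+NU6102, 1.99 and 1.93 in CDK2 KO, and 2.21 and 2.30 in R50. The groups did not overlap and stood in the order of TNFRSF10C and PERP. DRAM1 fell by 0.32 with NU6102 (adjusted p = 0.0114), and rose by 0.44 in CDK2 KO (adjusted p = 0.00616) and by 0.73 in R50 (adjusted p = 0.00221). FDXR, which passes electrons to mitochondrial cytochromes, fell by 0.48 with NU6102 (adjusted p = 0.0014) and rose by 0.41 in R50 (adjusted p = 0.00721). FUCA1, a lysosomal fucosidase, rose by 0.52 in R50 (adjusted p = 0.00194). C12orf5, now TIGAR, a phosphatase that restrains glycolysis, rose under NU6102 by 0.37 (adjusted p = 0.00626) and fell by 0.32 in R50 (adjusted p = 0.0234). SESN1, a sestrin that restrains mTORC1, had values of -0.13 in WT+NU6102, 0.28 in CDK2 KO and 0.32 in R50, and its WT duplicates differed by 0.42. ACER2, a ceramidase, had values of -0.15, 0.06 and -0.17 in the same groups, and its second probe pointed the other way in R50, at 0.30.

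The gene calls against WT were not equally firm. With NU6102, 8 of 19 calls were lost when 1 of the arrays was left out, those of MDM2, PPM1D, FAS, AEN, PERP, PHLDA3, XPC and DRAM1. The count of higher genes was 7 without WT replicate 1, WT replicate 2 or WT+NU6102 replicate 2, and that of lower genes 5 without WT replicate 1 or WT+NU6102 replicate 2. Under quantile normalization the split with NU6102 turned to 8 higher and 11 lower, and the median of the 33 genes to -0.09, and the values of MDM2, PPM1D, FAS and AEN, at 0.13, 0.07, 0.15 and 0.21, were no longer called. In CDK2 KO 5 of 21 calls were lost in the same way, those of BTG2, GDF15, TNFRSF10B, AEN and TRIAP1, which left 1 lower gene, TP53I3, when any of the WT, CDK2 KO or R50 arrays was left out. In R50 8 of 19 calls were lost, those of BTG2, ZMAT3, FAS, TNFRSF10B, TP53I3, APAF1, RRM2B and C12orf5. The count of higher genes in R50 was then 10 without R50 replicate 1, and that of lower genes 1 without WT replicate 1, WT replicate 2 or R50 replicate 2. No call turned its direction when an array was left out. The share of all genes called is not given for these fits, so the counts describe only the 33 genes.

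R50 and CDK2 KO were compared within slide 1. Of the 33 genes 9 were higher in R50 (27.3%, against 17.2% of all genes) and 11 lower (33.3%, against 23.7%), and 2 passed the stricter rule (background 5.43%). Without SPATA18 10 were lower and 1 passed the stricter rule. The median was 0.05, beside -0.06 over all genes. TNFRSF10C was higher in R50 by 1.02 ± 0.18 (adjusted p = 0.00868), GDF15 by 0.97 ± 0.07 (adjusted p = 0.000476), TP53I3 by 0.58 (adjusted p = 0.000768), FUCA1 by 0.45 (adjusted p = 0.00135) and NINJ1 by 0.40 (adjusted p = 0.00738). SPATA18 was lower, as given above. So were APAF1, at -0.85 ± 0.13 (adjusted p = 0.00573), XPC, at -0.83 ± 0.08 (adjusted p = 0.00105), GADD45A, at -0.46 (adjusted p = 0.00127), and AEN, at -0.43 (adjusted p = 0.00847). PPM1D and CCNG1, both feedback genes, were 0.28 and 0.21 lower in R50. Differences close to 0 included those of PLK2, CYFIP2 and TP53INP1, at -0.01, 0.05 and 0.07, with 95% confidence intervals that lay between -0.21 and 0.27. The second probes of CYFIP2 and TP53INP1 gave -0.09 and -0.13, neither called.

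In this comparison 7 of 20 calls were lost when an array was left out, those of CCNG1, FAS, PERP, PHLDA3, POLH, FDXR and DRAM1. The count of higher genes fell without CDK2 KO replicate 1, and was 5 when only the 4 arrays of the slide were fitted. The share of all genes called is not given for these fits.

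R50 and WT+NU6102, both grown in the drug but at different doses and times, lay on different slides. Of the 33 genes 17 were higher in R50 (51.5%, against 26.2%) and 6 lower (18.2%, against 33.9%), and 6 passed the stricter rule (background 11.8%). The median was 0.16, beside -0.06 over all genes. The 5 higher genes of these 6 were TNFRSF10C, CYFIP2 at 2.17 ± 0.05 (adjusted p = 1.68e-05), TP53INP1 at 1.94 ± 0.08 (adjusted p = 4.15e-05), PERP at 1.12 ± 0.07 (adjusted p = 9.93e-05) and DRAM1 at 1.05 ± 0.07 (adjusted p = 0.000123), and the lower one was TNFRSF10A. The second CYFIP2 probe gave 0.92 (adjusted p = 0.000218), under the cutoff of 1, and the second TP53INP1 probe 1.59. FDXR (0.88), RRM2B (0.64), GDF15 (0.60), DDB2 (0.52) and FUCA1 (0.44) were also higher in R50. TRIAP1, at -0.81 (adjusted p = 0.000228), C12orf5, at -0.69 (adjusted p = 0.000446), XPC, at -0.40, and AEN, at -0.37, were lower. The calls of PLK3, TNFRSF10B, POLH and SESN1, 4 of 23, were lost when an array was left out.

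**Figure D5:**
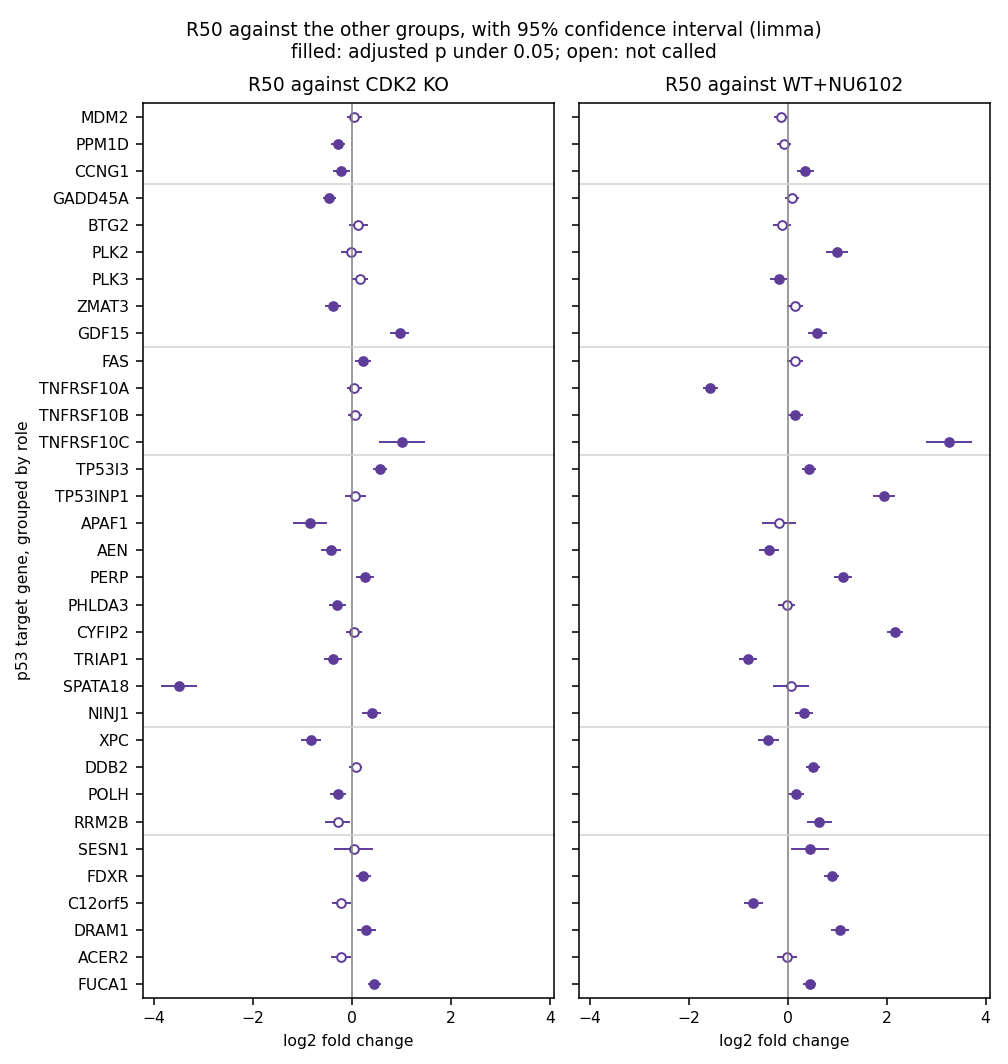
log2 fold change of R50 against CDK2 KO (same slide) and against WT+NU6102 (other slide) for the 33 p53 target genes, with 95% confidence intervals from limma on 2 arrays a group; filled points were called at an adjusted p under 0.05. Against CDK2 KO 9 genes lie higher and 11 lower among the called, and against WT+NU6102 17 and 6; the SPATA18 value against CDK2 KO is the fitted one, with R50 below background.

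Of 31 regulators of p53 tested, 9 were higher (29.0%, against 28.9% of all genes) and 4 lower (12.9%, against 24.2%) with NU6102, 8 higher (25.8%, against 19.2%) and 6 lower (19.4%, against 16.7%) in CDK2 KO, and 2 higher (6.45%, against 12.2%) and 5 lower (16.1%, against 15.4%) in R50. The shares higher with NU6102 and lower in R50 were thus those of all genes. MDM4, which holds p53 inactive, fell by its brightest probe by 0.64 in CDK2 KO (adjusted p = 0.000981) and by 0.22 in R50 (adjusted p = 0.0425). Its other probes gave -0.25, -0.50 and -0.50 in CDK2 KO, the first not called. In R50 another probe gave -0.25 (adjusted p = 0.0469), while the values of the rest, -0.18 and 0.07, were not called. With NU6102 its brightest probe rose by 0.19 but 2 of its other probes fell by 0.41 and 0.54, so that no direction can be given.

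A second list of 40 other p53 targets was counted the same way. Of these 13 were higher (32.5%, against 28.9% of all genes) and 13 lower (32.5%, against 24.2%) with NU6102, 15 higher (37.5%, against 19.2%) and 2 lower (5%, against 16.7%) in CDK2 KO, and 13 higher (32.5%, against 12.2%) and 4 lower (10.0%, against 15.4%) in R50. The first 4 genes of that list are its best known. CDKN1A, the p21 inhibitor of CDKs, had values of 0.04 with NU6102, 0.33 in CDK2 KO (adjusted p = 0.0312) and 0.32 in R50 (adjusted p = 0.0435). BBC3 (PUMA), a trigger of apoptosis at mitochondria, fell by 1.03 with NU6102 and rose by 0.50 in R50. BAX, which permeabilises mitochondria, fell by 0.32 with NU6102 and rose by 0.74 in CDK2 KO. PMAIP1 (NOXA), which neutralises MCL1, rose by 0.56 with NU6102 and fell by 0.75 in R50.

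Some of the 33 genes, TNFRSF10B and GDF15 among them, also respond to ATF4 and stress of the endoplasmic reticulum. Of 11 genes of that response tested, 4 were higher (36.4%, against 28.9% of all genes) and 3 lower (27.3%, against 24.2%) with NU6102, 1 higher (9.09%, against 19.2%) and 7 lower (63.6%, against 16.7%) in CDK2 KO, and 2 higher (18.2%, against 12.2%) and 2 lower (18.2%, against 15.4%) in R50. DDIT3, the transcription factor CHOP, rose by 1.94 with NU6102 (adjusted p = 0.000154) and fell by 0.77 in CDK2 KO and 0.51 in R50. Its part in the changes of the 33 genes was not tested.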

How the data were processed

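Per the labels, total RNA was labelled with Cy3 and hybridised to Agilent SurePrint G3 arrays. The authors deposited, for each of 62976 spots per array, the intensity given by Agilent Feature Extraction 11.5.1.1, background-subtracted and not normalized between arrays. The authors also deposited log2 values from GeneSpring GX, used here only as an alternative. In R 4.3.3, control spots and flagged outlier spots were left out, signals were taken to log2, each array's 75th percentile was taken off and the spots of a probe were averaged. No spot was marked saturated. Of 50599 probes, 31 lacked a usable spot on an array and 28677 were tested because some group had them well above background on both its arrays. The 33 p53 targets had 48 probes, 47 of them tested, and a gene was read from its brightest tested probe. Limma 3.58.1 fitted the 4 groups together. Tests are two-sided, and the spread measured is that between the 2 replicates of a group.

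Named genes were all 33, by role, with values on every array for those that changed by at least 1 in a comparison and for MDM2 and CCNG1, and GDF15 added after its values were seen. The members and lists were chosen with earlier results of these data known. Counts over genes use 15317 names found among RefSeq symbols or synonyms. Probe positions are on hg19 and promoters on GRCh38.p14, and were not mixed. The fit was tested on simulated data. Replicate numbers did not pair the samples (correlations of deviations between -0.03 and 0.05). Precision is limited by the 2 arrays a group. Plots used matplotlib 3.10.9 and numpy 2.4.6 under Python 3.11.15. A gene of the list of regulators is not reported here.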

Additional observations from a re-analysis of the deposited data

How the results depend on the processing

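Of the 102 gene changes called over the 5 comparisons, 98 were kept with normexp background correction (offset 50), 93 with quantile normalization, 100 with the authors' processed values, 100 with a prior variance following intensity, 102 with the mean over the probes of a gene and 72 with no filter on dim probes; 70 were kept with every array left out in turn, and none reversed there. The one change that reversed was PLK3 in R50 against WT+NU6102, which was 0.0275 under quantile normalization. It was among 18 of the 102 whose size moved by over 1.5 times under an alternative. With normexp, SPATA18 in CDK2 KO against WT was 1.02 and in R50 against CDK2 KO -1.02, APAF1 in R50 was -0.18 against WT and -0.35 against CDK2 KO, ZMAT3 was 0.36 in CDK2 KO against WT and -0.21 in R50 against CDK2 KO, and SESN1 in R50 against WT+NU6102 was 0.295. Under quantile normalization, MDM2, PPM1D, PLK3 and PERP in WT+NU6102 against WT were 0.13, 0.07, 0.22 and -0.48, and NINJ1 and TNFRSF10B in R50 against WT+NU6102 were 0.54 and 0.42. With the mean over probes, CYFIP2 was 0.54 in CDK2 KO and 0.52 in R50, and TP53I3 in WT+NU6102 was -0.16, each against WT. Without WT replicate 1, FAS in WT+NU6102 was 0.12. The causes were not tested. At a minimum absolute log2 fold change of 1, the numbers higher and lower were 1 and 3 in WT+NU6102 against WT, 3 and 0 in CDK2 KO against WT, 2 and 0 in R50 against WT, 1 and 1 in R50 against CDK2 KO, and 5 and 1 in R50 against WT+NU6102. With no filter they were 6 higher and 5 lower in WT+NU6102, 1 lower in CDK2 KO and 1 lower in R50 against WT, 5 higher in R50 against CDK2 KO, and 5 genes past the F-test. The methods' t-test for R50 against WT gave 21 higher and 2 lower genes unadjusted, and 1 and 0 after Benjamini-Hochberg. Over the 4 arrays of the slide, 5 genes were higher in R50 than in CDK2 KO. The F-test was passed by 27 genes with a prior variance following intensity and by 7 under the methods' ANOVA. With the replicate number as a block (replicate block), the F-test was passed by 6 genes, 95 of the 102 calls were kept and no count of a comparison moved by over 1.5 times; the replicates share only a number. Leaving out each array gave 7 to 10 higher and 5 to 9 lower genes in WT+NU6102, 15 to 19 and 1 to 2 in CDK2 KO, 10 to 14 and 1 to 3 in R50 against WT, 5 to 8 and 8 to 11 in R50 against CDK2 KO, 14 to 15 and 5 to 6 in R50 against WT+NU6102, and 4 to 6 genes past the F-test; the lone array of a group was taken to vary like the others. For SPATA18 and other genes near background the size of a change is uncertain.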
